A study of Mus musculus with 17 samples.

Results

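The circadian clock genes described here are 10 genes of the transcriptional clock, picked by symbol out of the 55421 genes in the count tables of mouse colorectal tumors. They comprise the 3 Period genes Per1, Per2 and Per3, the 3 PAR bZIP genes Dbp, Tef and Hlf, the 2 Rev-erb genes Nr1d1 and Nr1d2, and 2 activator genes of the opposite phase, Arntl (encoding Bmal1) and Npas2. Each symbol matched 1 gene identifier, and all 10 passed the low-count filter in both comparisons. The set was picked after higher clock transcripts had been seen in Tyk2ΔIEC over Tyk2fl/fl tumors, so for these 10 genes that contrast is given as a description, and nothing is read from counts of them past a threshold in it. The time of day at which tumors were collected is not given in the sources used here. The genes were therefore also read as 2 limbs of the clock, but whether collection time differed between groups was not tested.

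In the clock of mammalian cells, Clock or Npas2 pairs with Bmal1, binds E-box sequences and switches on the Per, Cry, Rev-erb and PAR bZIP genes. Per and Cry proteins then block these activators, while the Rev-erb repressors bind RRE sequences and hold down Arntl and Npas2, so that the activator genes peak at about the time of day when the Rev-erb genes are low. Dbp, Tef and Hlf act through D-box sequences, where the repressor Nfil3 opposes them. The colon epithelium has such a clock, which is set mainly by feeding time and by glucocorticoid hormones.

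Tumors were induced in all groups with the mutagen azoxymethane (AOM) and with dextran sulfate sodium (DSS), which inflames the colon, on a C57BL/6 background. The germline experiment held 3 libraries of Tyk2Δ/Δ tumors (labelled Tyk2KO) and 3 of Tyk2+/+ tumors (Tyk2wt). Tyk2Δ/Δ mice descend from a floxed allele that a CMV-cre deleter strain converted in the germline, after which the deleter was crossed out. Tyk2Δ/Δ and Tyk2+/+ mice came from crosses of heterozygotes. The epithelial experiment held 4 libraries of Tyk2ΔIEC tumors (Tyk2DIEC), in which Villin-cre deletes the floxed Tyk2 gene in intestinal epithelial cells and leaves it intact in stroma and immune cells, and 7 libraries of cre-negative Tyk2fl/fl tumors (Tyk2fl). The labels name single tumors as the material, while a legend of the study speaks of pooled tumor samples, and neither ties a library to a mouse. Where libraries share a mouse, a p-value reflects variation among libraries and not among mice. Age, sex and collection time are not given in the sources used here.

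Read counts on genes totalled 19129696 to 21707373 in the Tyk2Δ/Δ, Tyk2+/+ and Tyk2ΔIEC libraries and 29777763 to 35427965 in the Tyk2fl/fl libraries. The epithelial comparison thus sets libraries of lower depth against libraries of higher depth, and depth and deletion cannot be told apart in it. Tyk2 itself had 1177 to 1257 counts in Tyk2Δ/Δ and 1092 to 1199 in Tyk2+/+ tumors, and 1020 to 1113 in Tyk2ΔIEC and 1359 to 1943 in Tyk2fl/fl tumors. The study assessed the deletion at exon 3, and counts over the whole gene do not check it. Xist, transcribed from the inactive X chromosome, was high in 3 of 7 Tyk2fl/fl libraries (replicates 1 to 3, 40656 to 45446 counts) and had at most 106 counts in any other library. Mitochondrial transcripts took 2.50 to 4.88% of counts in Tyk2fl/fl and 1.82 to 2.68% in the other 10 libraries. The summed level of 10 epithelial markers lay between 9376 and 12152 CPM (read counts scaled to a common library total with TMM factors) in Tyk2ΔIEC and between 8086 and 13724 CPM in Tyk2fl/fl tumors, with none of the 10 at 0. Tyk2ΔIEC replicate 1 stood apart by its smooth muscle content, with 1472 CPM summed over 10 smooth muscle markers against 200.7 to 251.0 CPM in the other 3 Tyk2ΔIEC libraries. These are bulk tumors, so fewer cells that express a gene and less RNA of it per cell cannot be told apart.

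Promoter windows of Per3, Tef and Dbp, which were apart from their controls in both experiments, and of Per1 and Arntl, which were not, are shown to compare them for the elements through which clock factors act. RefSeq windows (GRCm38.p6, 250 bases before to 50 bases after an annotated start, on the strand of the gene) were found for 9 of the 10 genes, all but Per2, in 12 windows. Both strands were searched for the E-box CACGTG, the D-box TTATGTAA or TTACGTAA, the Rev-erb element RRE as TAGGTCA or TGGGTCA, and the cyclic AMP response element CRE, TGACGTCA. Capitals mark a match. The windows are Per3 at chr4:151044616-151044915 (minus strand), Tef at chr15:81802423-81802722, Dbp at chr7:45704997-45705296, Per1 at chr11:69098699-69098998 and Arntl at chr7:113207261-113207560 (all plus strand).
Per3: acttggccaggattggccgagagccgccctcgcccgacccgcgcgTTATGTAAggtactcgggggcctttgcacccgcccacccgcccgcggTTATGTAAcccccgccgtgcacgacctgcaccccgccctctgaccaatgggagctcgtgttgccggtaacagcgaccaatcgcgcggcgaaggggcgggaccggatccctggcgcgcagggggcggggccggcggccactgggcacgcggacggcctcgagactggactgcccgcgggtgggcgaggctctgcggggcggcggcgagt
Tef: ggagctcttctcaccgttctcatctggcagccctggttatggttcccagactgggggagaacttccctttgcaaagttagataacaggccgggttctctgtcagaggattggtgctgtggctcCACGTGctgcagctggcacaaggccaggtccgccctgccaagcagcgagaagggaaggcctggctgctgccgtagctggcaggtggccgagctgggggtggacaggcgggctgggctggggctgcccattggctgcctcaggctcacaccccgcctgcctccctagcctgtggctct
Dbp: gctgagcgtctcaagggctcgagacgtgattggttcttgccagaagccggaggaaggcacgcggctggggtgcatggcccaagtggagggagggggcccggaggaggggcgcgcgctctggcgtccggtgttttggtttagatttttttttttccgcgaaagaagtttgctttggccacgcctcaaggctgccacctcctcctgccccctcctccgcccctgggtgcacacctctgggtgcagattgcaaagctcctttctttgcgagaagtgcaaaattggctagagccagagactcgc
Per1: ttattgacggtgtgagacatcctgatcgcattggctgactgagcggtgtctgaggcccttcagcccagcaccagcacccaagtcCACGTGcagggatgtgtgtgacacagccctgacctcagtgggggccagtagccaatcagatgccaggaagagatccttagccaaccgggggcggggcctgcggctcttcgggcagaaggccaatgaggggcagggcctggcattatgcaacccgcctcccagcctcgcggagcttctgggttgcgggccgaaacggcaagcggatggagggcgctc
Arntl: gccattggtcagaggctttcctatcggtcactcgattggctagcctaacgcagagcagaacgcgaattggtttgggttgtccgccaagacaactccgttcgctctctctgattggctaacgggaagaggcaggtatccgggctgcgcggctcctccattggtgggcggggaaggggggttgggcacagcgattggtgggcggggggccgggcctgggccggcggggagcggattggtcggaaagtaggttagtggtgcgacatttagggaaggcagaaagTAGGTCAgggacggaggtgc
Per3 carried 2 D-boxes, beginning at positions -205 and -158 from the start site, an element that 1.06% of the 32851 promoter windows of the table held. The E-box was found in Tef at -127, in a second Tef window at chr15:81811164-81811463 at -138, and in Per1 at -166, against 7.15% of all windows. Arntl had an RRE at position 30 after the start (6.45% of all windows), and Hlf a CRE at -9 (1.79%). Of Per1 and Arntl the window with a match is shown. Another Per1 window at chr11:69099902-69100201 and another Arntl window at chr7:113207215-113207514 held none of the elements searched. The same was so for all windows of Dbp, Nr1d1, Nr1d2 and Npas2. A match describes the sequence and does not show that a factor was bound there.

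**Figure D1:**
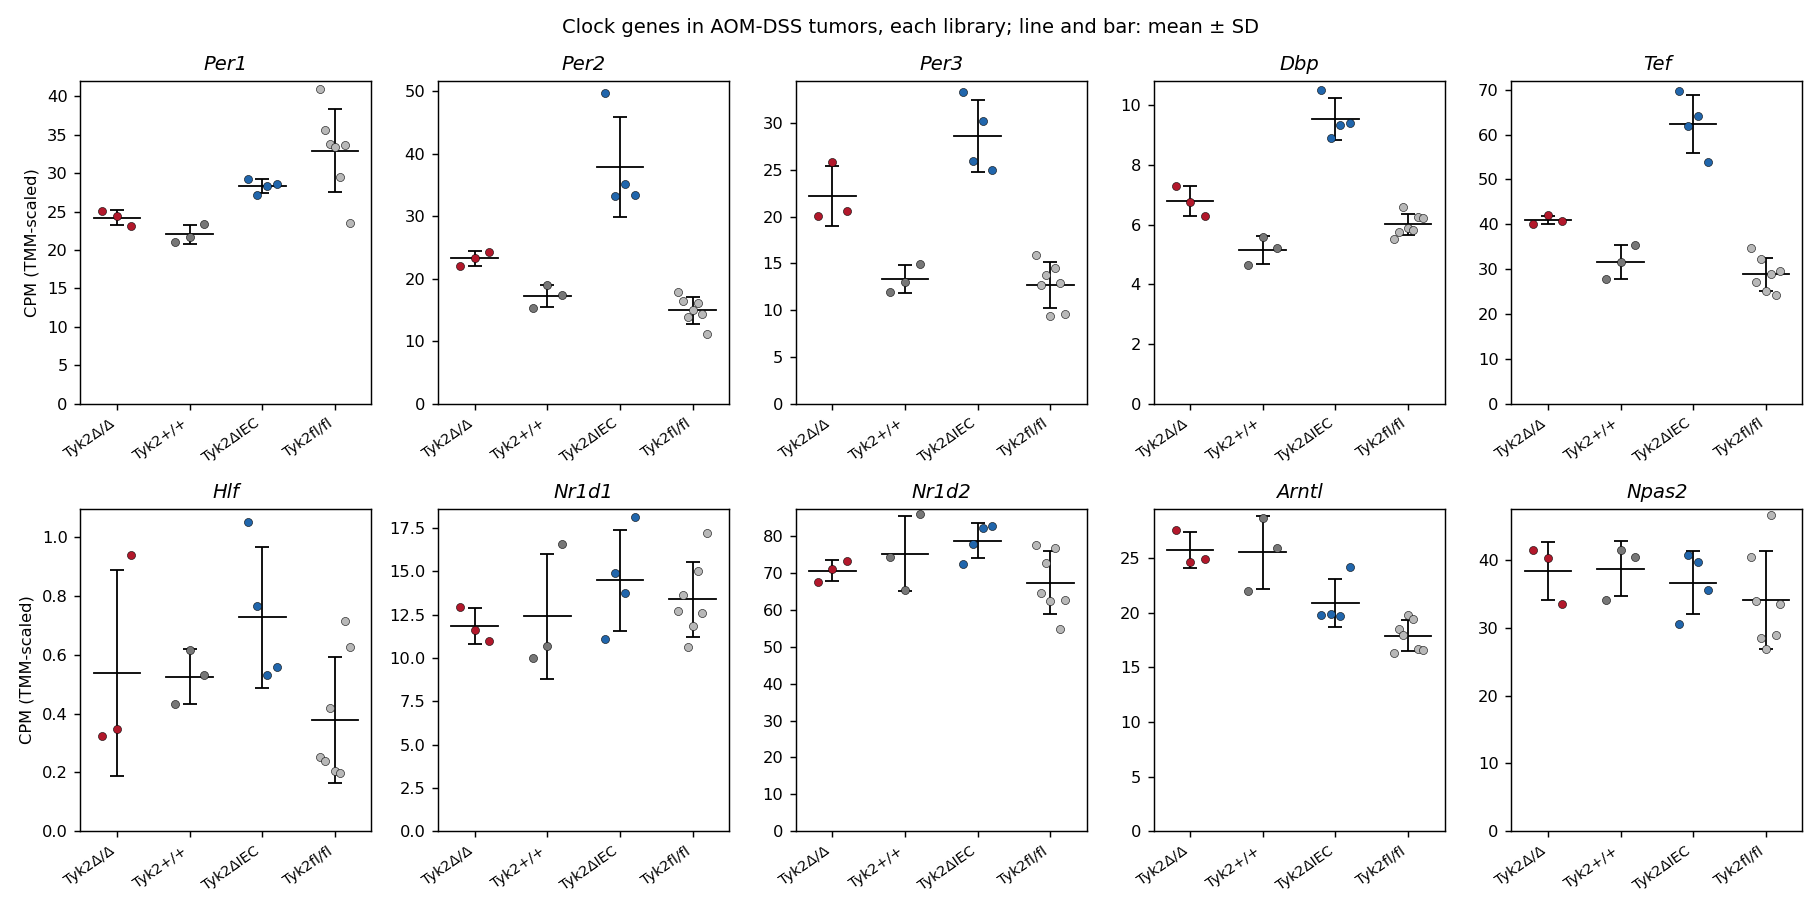
Level of each of the 10 clock genes in CPM (y axis from 0, TMM-scaled) in each library of the 4 genotypes (x axis); lines and bars are the mean ± SD. Per2, Per3, Dbp and Tef are higher in every Tyk2Δ/Δ library than in any Tyk2+/+ library and higher in every Tyk2ΔIEC library than in any Tyk2fl/fl library, while the other 6 genes overlap in both comparisons. Of all genes, 14.1% are higher in this way in the germline comparison and 7.4% in the epithelial one, which chose the members.

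Per2, Per3, Dbp and Tef were the members that were higher in every deleted library than in any control library, in each experiment. The epithelial contrast chose the members, so in it this is a description and no support. In the germline comparison 14.1% of all genes were higher in this way. In Tyk2Δ/Δ tumors Per3 passed the test and the other 3 did not, although none of their libraries overlapped. Per2 encodes the Period protein that stabilizes the repressing complex with Cry. It had 22.1, 23.3 and 24.4 CPM in Tyk2Δ/Δ tumors, against 15.3, 19.0 and 17.3 CPM in Tyk2+/+ tumors. The groups did not overlap, and the log2 fold change was 0.43 (SE 0.10, adjusted p = 0.0667 from edgeR's quasi-likelihood test with Benjamini-Hochberg adjustment, as for all adjusted p-values here). In the epithelial experiment Per2 had 49.7, 33.3, 35.1 and 33.4 CPM in Tyk2ΔIEC tumors, against a lowest value of 11.1, a median of 15.1 and a highest value of 17.8 CPM in the 7 Tyk2fl/fl tumors. The lowest Tyk2ΔIEC library thus lay above the highest control. The log2 fold change was 1.34 (SE 0.13), and 1.17 (SE 0.12) without Tyk2ΔIEC replicate 1, the library with much smooth muscle, which was also the highest in Per2.

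Per3, a Period gene that is not required for the rhythm itself in mice, had 20.1, 25.9 and 20.6 CPM in Tyk2Δ/Δ tumors, against 12.0, 13.0 and 14.9 CPM in Tyk2+/+ tumors. It was the 1 member that rose in this experiment, with a log2 fold change of 0.73 (SE 0.13, adjusted p = 0.0300). The call is close to its limit: leaving out each of the 6 libraries in turn gave log2 fold changes of 0.61 to 0.82 with adjusted p-values from 0.0498 to 0.115, so that Per3 passed only without Tyk2+/+ replicate 2. In Tyk2ΔIEC tumors Per3 had 33.3, 26.0, 30.2 and 25.0 CPM, against 9.36, 12.9 and 16.0 CPM (lowest, median, highest) in Tyk2fl/fl tumors. All 4 deleted libraries lay above all 7 controls, by 1.18 on the log2 scale (SE 0.15). The Per3 gene overlaps Camta1, annotated on the same strand with 982 to 3388 counts, and reads in shared sequence could be counted for either.

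Tef, a PAR bZIP activator and the strongest of the 3 in these tumors, had 40.1, 42.0 and 40.8 CPM in Tyk2Δ/Δ tumors, against 27.8, 31.7 and 35.4 CPM in Tyk2+/+ tumors. The Tyk2Δ/Δ values lay close together and above every control, by 0.37 on the log2 scale (SE 0.09, adjusted p = 0.0776). In Tyk2ΔIEC tumors Tef had 69.7, 61.9, 64.0 and 53.9 CPM, against 24.2, 28.8 and 34.7 CPM (lowest, median, highest) in Tyk2fl/fl tumors, a log2 fold change of 1.11 (SE 0.10). Dbp, the PAR bZIP gene named after its binding to the albumin promoter, had 7.31, 6.75 and 6.30 CPM in Tyk2Δ/Δ tumors, against 4.65, 5.59 and 5.20 CPM in Tyk2+/+ tumors. Here too the groups were apart, with a log2 fold change of 0.39 (SE 0.15, adjusted p = 0.165). Dbp had 10.5, 8.89, 9.34 and 9.40 CPM in Tyk2ΔIEC tumors, against 5.52, 5.87 and 6.59 CPM (lowest, median, highest) in Tyk2fl/fl tumors, a log2 fold change of 0.67 (SE 0.10). Dbp overlaps Sphk2 on the opposite strand (933 to 1966 counts), and which strand was counted is not given in the sources used here. Hlf, the remaining PAR bZIP gene, was barely transcribed, with 7 to 22 counts per library. Its 0.324, 0.348 and 0.940 CPM in Tyk2Δ/Δ tumors overlapped the 0.431, 0.616 and 0.530 CPM in Tyk2+/+ tumors, and its 0.530 to 1.05 CPM in Tyk2ΔIEC tumors overlapped the 0.199 to 0.713 CPM in Tyk2fl/fl tumors. The log2 fold changes of 0.03 (SE 0.47, adjusted p = 0.976) and 0.95 (SE 0.40) are too imprecise at this depth to place Hlf with or against Dbp and Tef.

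Per1, the Period gene that responds most directly to light, glucocorticoids and cyclic AMP, did not follow Per2 and Per3. It had 25.1, 24.4 and 23.1 CPM in Tyk2Δ/Δ tumors, against 21.0, 21.7 and 23.4 CPM in Tyk2+/+ tumors, which overlapped (log2 fold change 0.13, SE 0.08, adjusted p = 0.385). In Tyk2ΔIEC tumors it had 29.3, 27.1, 28.4 and 28.6 CPM, inside the range of the Tyk2fl/fl tumors (23.4, 33.7 and 41.0 CPM as lowest, median and highest). The log2 fold change of -0.22 (SE 0.12) pointed the other way from Per2 and Per3. Against the 4 Tyk2fl/fl libraries low in Xist alone it was -0.10 (SE 0.11), whereas Per2 then stood at 1.41 (SE 0.16), Per3 at 1.29 (SE 0.16), Tef at 1.20 (SE 0.10) and Dbp at 0.64 (SE 0.12).

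The Rev-erb genes, which encode heme-binding repressors and belong to the same limb as Per and PAR bZIP genes, overlapped in both comparisons. Nr1d1 had 13.0, 11.6 and 11.0 CPM in Tyk2Δ/Δ tumors, against 9.97, 10.7 and 16.6 CPM in Tyk2+/+ tumors (log2 fold change -0.07, SE 0.20, adjusted p = 0.856). In Tyk2ΔIEC tumors it had 11.1, 14.9, 13.7 and 18.1 CPM, against 10.6, 12.7 and 17.2 CPM (lowest, median, highest) in Tyk2fl/fl tumors, a log2 fold change of 0.11 (SE 0.15). Tyk2ΔIEC replicate 1, the highest of its group in Per2, Per3, Dbp and Tef, was the lowest in Nr1d1. Nr1d1 overlaps Thra on the opposite strand (829 to 2086 counts), so its level carries the same uncertainty of strand as that of Dbp. Nr1d2 had 67.6, 71.1 and 73.2 CPM in Tyk2Δ/Δ tumors, against 74.3, 65.5 and 85.8 CPM in Tyk2+/+ tumors (log2 fold change -0.10, SE 0.10, adjusted p = 0.586). In the epithelial experiment its 72.4, 77.7, 82.1 and 82.7 CPM in Tyk2ΔIEC tumors overlapped the 54.9, 64.6 and 77.6 CPM (lowest, median, highest) of Tyk2fl/fl tumors, with a log2 fold change of 0.23 (SE 0.09).

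Arntl and Npas2 did not move against the Per and PAR bZIP genes in either experiment. Arntl had 27.6, 24.6 and 25.0 CPM in Tyk2Δ/Δ tumors, against 22.0, 28.7 and 26.0 CPM in Tyk2+/+ tumors (log2 fold change 0.01, SE 0.11, adjusted p = 0.983). In Tyk2ΔIEC tumors it had 19.8, 19.9, 19.7 and 24.2 CPM, against 16.3, 18.0 and 19.8 CPM (lowest, median, highest) in Tyk2fl/fl tumors. The groups met only at their edges, and the log2 fold change of 0.23 (SE 0.09) had the same sign as that of Per2. Npas2, which can take the place of Clock as partner of Bmal1, had 41.5, 40.3 and 33.5 CPM in Tyk2Δ/Δ tumors, against 34.1, 41.6 and 40.5 CPM in Tyk2+/+ tumors (log2 fold change -0.02, SE 0.11, adjusted p = 0.942). Its 30.6, 40.7, 39.8 and 35.6 CPM in Tyk2ΔIEC tumors lay within the range of Tyk2fl/fl tumors (26.8, 33.5 and 46.6 CPM as lowest, median and highest), with a log2 fold change of 0.11 (SE 0.15). A missed threshold does not show that the groups were alike.

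**Figure D2:**
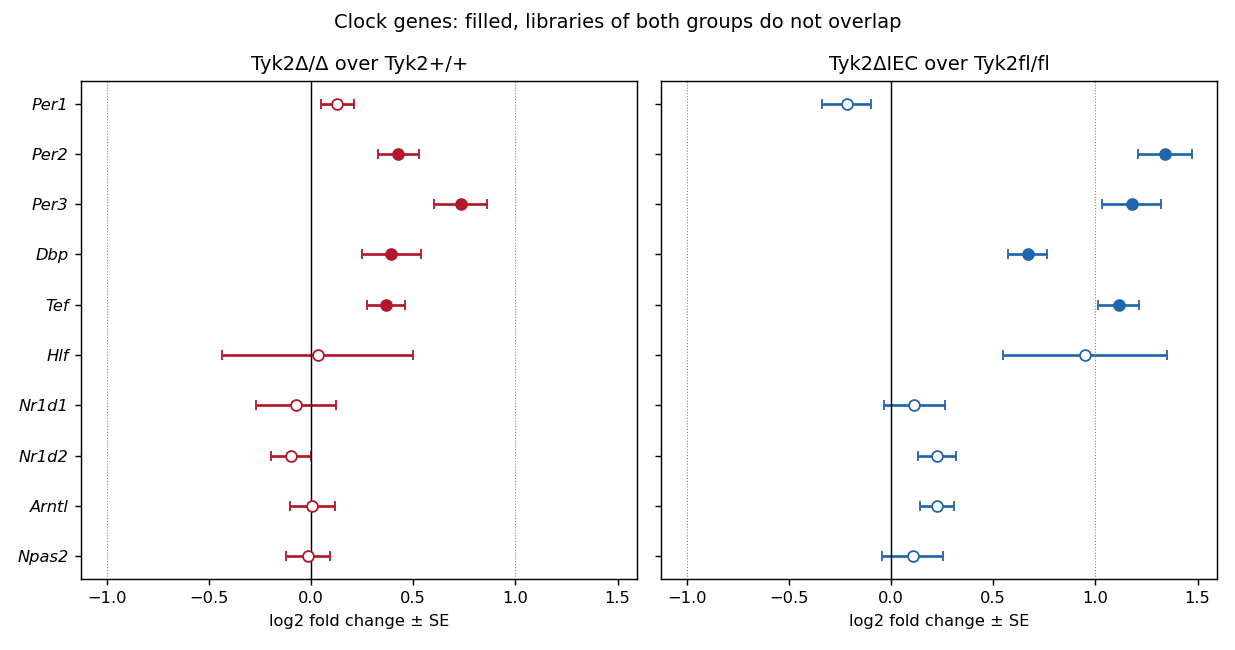
Log2 fold change ± SE (x axis) of the 10 clock genes (y axis) for Tyk2Δ/Δ over Tyk2+/+ on the left and Tyk2ΔIEC over Tyk2fl/fl on the right; filled points mark genes whose libraries do not overlap and dotted lines a 2-fold change. Per2, Per3, Dbp and Tef are the filled points in both panels, at 0.37 to 0.73 on the left and 0.67 to 1.34 on the right, while Arntl and Npas2 lie between -0.02 and 0.23. The contrast on the right chose the members, and on the left 14.1% of all genes are higher without overlap.

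Set against all genes, the germline comparison gave 1 of 10 members higher at an adjusted p under 0.05 and 0 lower, where 0.668% of the 16179 genes tested were higher and 2.13% lower. With edgeR, 4 members were higher and 0 lower at an unadjusted p under 0.05, and DESeq2 called 3 members higher (Per2, Per3 and Tef) and 0 lower. Shares of all genes at an unadjusted p or with DESeq2 are not given, here and below, so nothing is read from such counts. Past 2-fold 0 members were called by either tool, against 0.0927% of all genes higher by edgeR. In 4 of 10 members every Tyk2Δ/Δ library lay above every Tyk2+/+ library, which was so for 14.1% of all genes. The median log2 fold change of the members was 0.08, beside 0.004 for all genes. In the epithelial comparison, from which the members were chosen, 4 were higher at an adjusted p under 0.05 (10.2% of the 17668 genes tested), 3 of them past 2-fold (1.48%), and 4 did not overlap with the controls (7.4%). The median log2 fold change of the members was 0.45, beside -0.003 for all genes. Because of that choice nothing is read from these shares.

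Across the 4 genotypes, Per2 averaged 37.9 ± 7.9 CPM in Tyk2ΔIEC, 23.3 ± 1.1 in Tyk2Δ/Δ, 17.2 ± 1.8 in Tyk2+/+ and 14.96 ± 2.17 CPM in Tyk2fl/fl tumors (SD, n = 4, 3, 3 and 7). Tef followed the same order, with 62.4 ± 6.6 CPM in Tyk2ΔIEC, 41.0 ± 1.0 in Tyk2Δ/Δ, 31.6 ± 3.8 in Tyk2+/+ and 28.8 ± 3.8 CPM in Tyk2fl/fl tumors. In the means of Per3 and Dbp, too, Tyk2ΔIEC tumors were highest and Tyk2Δ/Δ tumors next, but with overlap. Per3 reached 25.9 CPM in Tyk2Δ/Δ and went down to 25.0 CPM in Tyk2ΔIEC tumors. Dbp went down to 6.30 CPM in Tyk2Δ/Δ and reached 6.59 CPM in Tyk2fl/fl tumors. For Per2 and Tef the libraries of Tyk2+/+ and Tyk2fl/fl tumors overlapped, while each of the other neighbours in the order was apart. The mean level of Arntl differed more by experiment than by deletion: it was 25.7 ± 1.6 CPM in Tyk2Δ/Δ and 25.5 ± 3.4 CPM in Tyk2+/+ tumors, but 20.9 ± 2.2 CPM in Tyk2ΔIEC and 17.9 ± 1.4 CPM in Tyk2fl/fl tumors. The libraries overlapped, with 22.0 CPM in Tyk2+/+ replicate 1 and 24.2 CPM in Tyk2ΔIEC replicate 4. The means of Per1 were opposite, with 24.2 ± 1.0 CPM in Tyk2Δ/Δ and 22.0 ± 1.2 CPM in Tyk2+/+, against 28.3 ± 0.9 CPM in Tyk2ΔIEC and 32.9 ± 5.4 CPM in Tyk2fl/fl tumors. Here too libraries overlapped, with 25.1 CPM in Tyk2Δ/Δ replicate 1 and 23.4 CPM in Tyk2fl/fl replicate 7. Between the control groups, in 1 fit over all 17 libraries, Tyk2+/+ minus Tyk2fl/fl was 0.51 (SE 0.09) for Arntl and -0.58 (SE 0.12) for Per1 on the log2 scale, and 0.20 (SE 0.14) for Per2, 0.07 (SE 0.16) for Per3, 0.13 (SE 0.11) for Tef and -0.22 (SE 0.10) for Dbp. The control groups differ in allele, depth and experiment at once, which cannot be told apart here. In Tyk2ΔIEC against Tyk2fl/fl tumors, depth and deletion cannot be told apart either. Set per kilobase of annotated exons, Nr1d2 was the most abundant member, at 10.1 to 15.9 CPM per kb over the 17 libraries, above Npas2 at 5.60 to 9.73. From Npas2 down through Per1, Tef, Nr1d1, Per2, Arntl, Dbp and Per3, each range overlapped the next, and Hlf lay below them all at 0.0298 to 0.157 CPM per kb.

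Both limbs were then summarized in each library. The log2 CPM of each gene was centred on the mean of the 4 genotypes, and the mean of Arntl and Npas2 was subtracted from the mean of the 8 Per, PAR bZIP and Rev-erb genes. This difference was 0.77, 0.39, 0.41 and 0.34 in Tyk2ΔIEC tumors, against -0.32, 0.02 and 0.19 (lowest, median, highest) in Tyk2fl/fl tumors. All Tyk2ΔIEC libraries were higher, and the group means were 0.50 apart. The gap came from the first limb, whose mean was 0.43 ± 0.09 in Tyk2ΔIEC and -0.24 ± 0.09 in Tyk2fl/fl tumors. Arntl and Npas2 averaged -0.05 ± 0.11 in Tyk2ΔIEC and -0.22 ± 0.15 in Tyk2fl/fl tumors, a difference in the same direction that narrowed the gap. In the germline experiment the difference between limbs was -0.29, -0.14 and 0.08 in Tyk2Δ/Δ tumors, against -0.30, -0.48 and -0.26 in Tyk2+/+ tumors. These groups overlapped, with means 0.23 apart. The first limb averaged 0.02 ± 0.07 in Tyk2Δ/Δ and -0.21 ± 0.15 in Tyk2+/+ tumors, and Arntl and Npas2 averaged 0.14 ± 0.11 in Tyk2Δ/Δ and 0.13 ± 0.17 in Tyk2+/+ tumors. Within the 8 genes the gap was uneven, since Per1, Nr1d1 and Nr1d2 overlapped in both experiments.

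**Figure D3:**
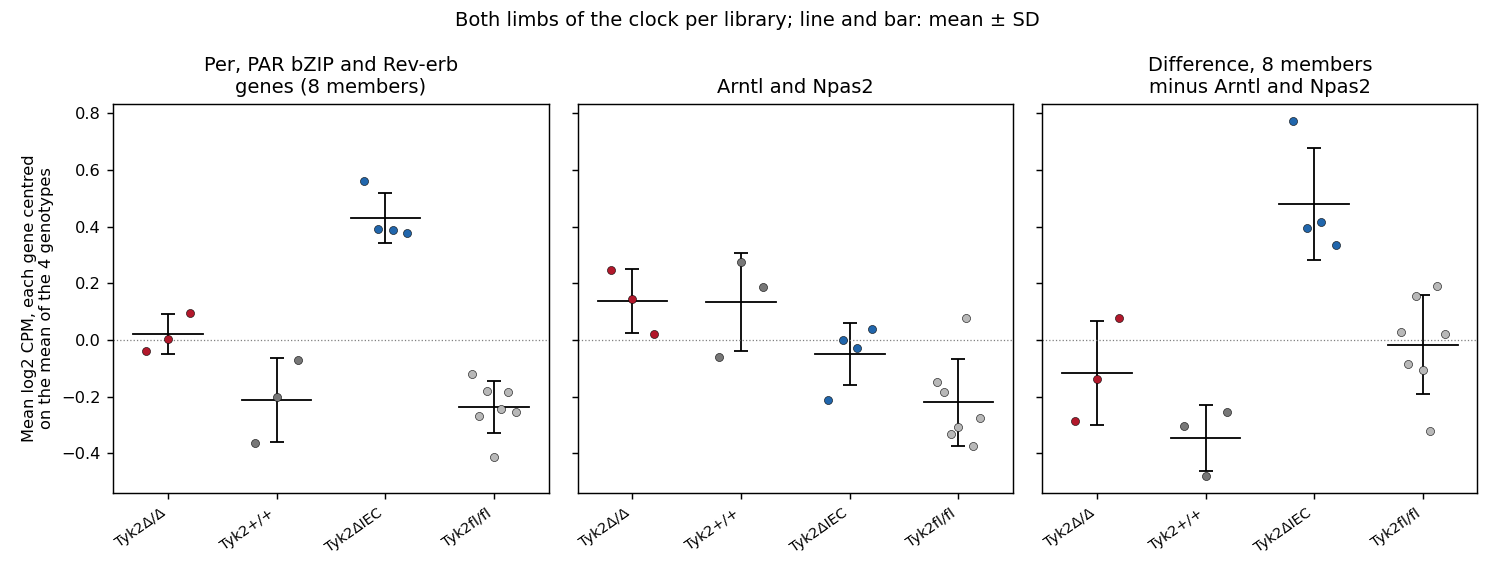
Mean log2 CPM per library, each gene centred on the mean of the 4 genotypes (y axis), for the 8 Per, PAR bZIP and Rev-erb genes, for Arntl and Npas2, and for the difference between both, by genotype (x axis); lines and bars are the mean ± SD. The 8 genes are highest in Tyk2ΔIEC tumors (0.38 to 0.56), while Arntl and Npas2 are not lowest there.

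Pairs of members were set against each other within the 7 Tyk2fl/fl libraries, the largest group of 1 genotype. Of the 45 pairs, 3 had an unadjusted p under 0.05 and 0 an adjusted p under 0.05 (exact permutation test of Pearson's r, two-sided, adjusted over the 45 pairs). Those 3 pairs are named after their values were seen. Per1 with Per2 had r = 0.85 and rho = 0.64 (exact permutation p = 0.0268 and 0.139, adjusted p = 0.504 and 0.663), but r = -0.19 without the 2 libraries farthest from the median of Per1, so the relation rests on those libraries. Tef with Nr1d2 had r = 0.82 and rho = 0.82 (exact permutation p = 0.0272 and 0.0341, adjusted p = 0.504 and 0.663), and r = 0.55 without the 2 libraries farthest in Tef. Per2 with Hlf had r = -0.73 and rho = -0.57 (exact permutation p = 0.0478 and 0.20, adjusted p = 0.504 and 0.663), and r = -0.73 without the 2 libraries farthest in Per2. Hlf had only 7 to 21 counts per Tyk2fl/fl library, so the values of this pair are limited by depth. By rho, the pair with the lowest p was Per2 with Dbp, also named after its values were seen. It had r = -0.73 and rho = -0.89 (exact permutation p = 0.0550 and 0.0123, adjusted p = 0.504 and 0.554). Without the 2 libraries farthest in Per2 its r was -0.92. The r of Arntl with Per2, Dbp and Nr1d1 was smaller. Per2 with Arntl had r = 0.26 and Spearman's rho = 0.07 (exact permutation p = 0.620 and 0.906, adjusted p = 0.883 and 0.995). Dbp with Arntl had r = -0.13 and rho = 0.04 (exact permutation p = 0.785 and 0.963, adjusted p = 0.883 and 1.0). Nr1d1 with Arntl had r = -0.18 and rho = -0.21 (exact permutation p = 0.693 and 0.662, adjusted p = 0.883 and 0.902). Without the 2 libraries farthest from the median of the first gene, these 3 r values with Arntl became 0.55, 0.01 and 0.24. Of the 16 pairs that join a gene of the first limb with Arntl or Npas2, 9 had a negative r, and of the 28 pairs within the first limb 16 did.

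Among the other core clock genes, Tyk2ΔIEC tumors had higher transcripts of several repressors. Of 15 genes listed, 14 could be tested, and 4 rose and 0 fell over Tyk2fl/fl tumors at an adjusted p under 0.05, where 10.2% of all genes rose and 9.71% fell. No gene of the list was lower at an unadjusted p under 0.05 or with DESeq2 either. Cry1, encoding a cryptochrome repressor, had 43.3, 32.4, 34.9 and 39.9 CPM in Tyk2ΔIEC tumors, against 25.9, 28.0 and 30.2 CPM (lowest, median, highest) in Tyk2fl/fl tumors, a log2 fold change of 0.42 (SE 0.08, adjusted p = 0.00511). All 4 Tyk2ΔIEC libraries lay above all controls. Cry2, the other cryptochrome, rose by 0.72 (SE 0.20, adjusted p = 0.0243), but its 26.1 to 50.6 CPM in Tyk2ΔIEC overlapped the 16.7 to 29.5 CPM in Tyk2fl/fl tumors. Ciart, a repressor of Clock and Bmal1 that is driven by E-boxes, had 2.74 to 4.02 CPM in Tyk2ΔIEC and 1.506 to 2.604 CPM in Tyk2fl/fl tumors, without overlap (log2 fold change 0.85, SE 0.17, adjusted p = 0.00692). Tyk2ΔIEC replicate 1, the library rich in smooth muscle, was the highest in Cry1, Cry2 and Ciart. The part of smooth muscle in these values was not tested, and without that library 3 of the list rose, and without Tyk2ΔIEC replicate 3, 2 rose. Btrc, part of the ubiquitin ligase that removes Per proteins, rose by 0.28 (SE 0.07, adjusted p = 0.0199).

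The remaining regulators did not pass in Tyk2ΔIEC tumors. Clock, the partner of Bmal1, had a log2 fold change of 0.25 (SE 0.10, adjusted p = 0.0989). Nfil3, which represses at D-boxes, was at -0.06 (SE 0.10, adjusted p = 0.685). The E-box repressors Bhlhe40 and Bhlhe41 were at 0.16 (SE 0.09, adjusted p = 0.205) and 0.03 (SE 0.24, adjusted p = 0.939). In Tyk2Δ/Δ tumors 0 of the 14 testable genes passed with edgeR, 4 were higher and 2 lower at an unadjusted p under 0.05, and DESeq2 called 1, Clock, as lower. Clock had 128, 140 and 167 CPM in Tyk2Δ/Δ tumors, against 187, 170 and 200 CPM in Tyk2+/+ tumors, a log2 fold change of -0.37 (SE 0.11, adjusted p = 0.101). Nfil3 had 17.4, 14.8 and 13.0 CPM in Tyk2Δ/Δ tumors, against 20.2, 20.7 and 18.2 CPM in Tyk2+/+ tumors, at -0.39 (SE 0.12, adjusted p = 0.120). Both lay lower in every Tyk2Δ/Δ library, as 4 genes of the list did and 14.4% of all genes. In the other direction, 2 genes of the list lay higher in every Tyk2Δ/Δ library, as 14.1% of all genes did. Cry1 at 0.05 (SE 0.11, adjusted p = 0.813), Cry2 at 0.15 (SE 0.18, adjusted p = 0.670), Ciart at 0.09 (SE 0.33, adjusted p = 0.895), Bhlhe40 at -0.03 (SE 0.08, adjusted p = 0.841) and Bhlhe41 at 0.80 (SE 0.33, adjusted p = 0.201) overlapped between Tyk2Δ/Δ and Tyk2+/+ tumors. The median log2 fold change of the list was 0.07 in Tyk2Δ/Δ and 0.08 in Tyk2ΔIEC tumors.

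**Figure D4:**
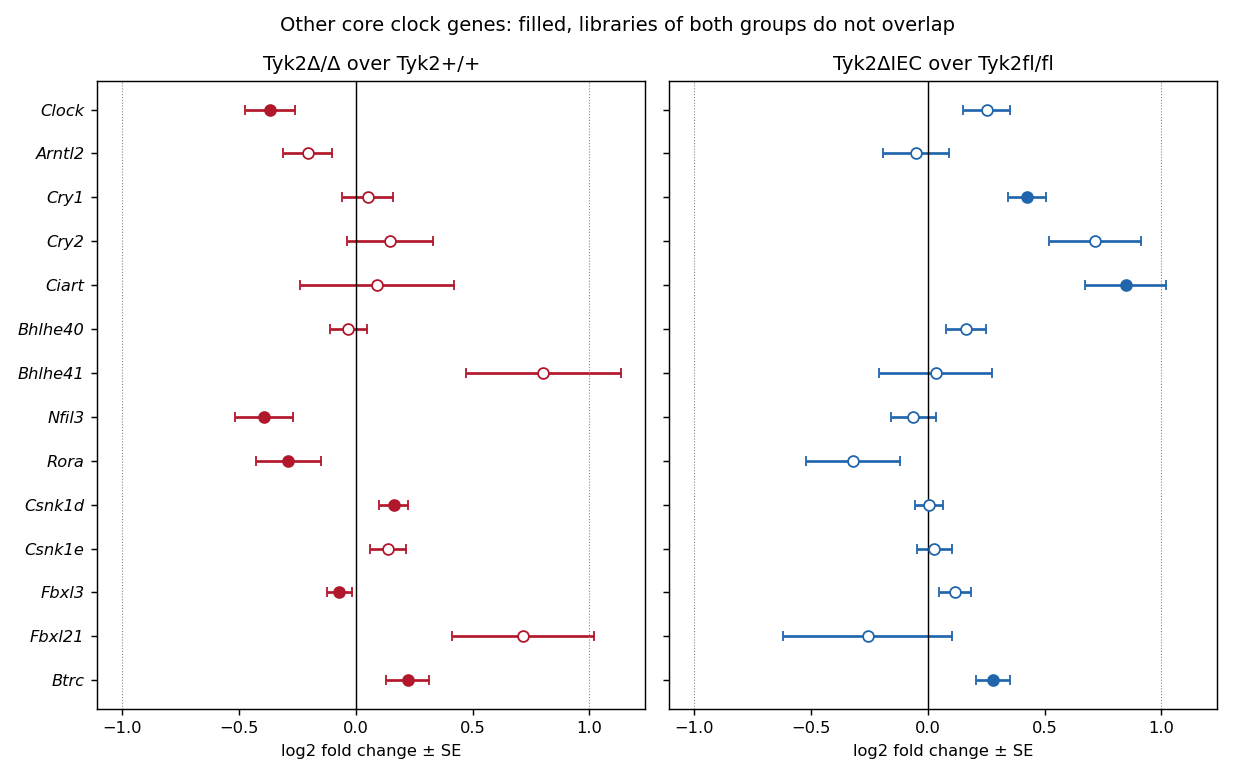
Log2 fold change ± SE (x axis) of the 14 other core clock genes that could be tested (y axis) for Tyk2Δ/Δ over Tyk2+/+ on the left and Tyk2ΔIEC over Tyk2fl/fl on the right; filled points mark genes whose libraries do not overlap and dotted lines a 2-fold change. Cry1, Ciart and Btrc are filled on the right at 0.28 to 0.85. On the left 2 genes are filled above 0 and 4 below 0, with Clock and Nfil3 among those below.

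For these genes, which are no members, the change in one experiment was compared with that in the other in 1 fit over all libraries. Their list was drawn up with earlier results of these data known, so the test is not independent of those results. For Clock the change in the germline experiment minus that in the epithelial one was -0.61 on the log2 scale (SE 0.16, adjusted p = 0.0312), where 7.96% of 17252 genes differed at an adjusted p under 0.05. Cry1 (-0.37, SE 0.14, adjusted p = 0.126), Cry2 (-0.57, SE 0.32, adjusted p = 0.305), Ciart (-0.75, SE 0.35, adjusted p = 0.203), Nfil3 (-0.32, SE 0.16, adjusted p = 0.223), Bhlhe40 (-0.19, SE 0.13, adjusted p = 0.407) and Bhlhe41 (0.78, SE 0.42, adjusted p = 0.282) did not pass. The members' own differences were not tested.

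Genes induced by signals that also act on Per genes were counted as lists. Of 14 glucocorticoid-induced genes, 4 fell and 0 rose in Tyk2ΔIEC tumors, none past 2-fold (2 were higher at an unadjusted p under 0.05, 0 with DESeq2), where 9.71% of all genes fell and 10.2% rose. Those 4 were Klf9, Mt1, Mt2 and Angptl4, of which the metallothioneins Mt1 and Mt2 bind zinc, and their log2 fold changes were -0.47 (SE 0.09), -0.85 (SE 0.13), -0.88 (SE 0.21) and -0.84 (SE 0.26). In Tyk2Δ/Δ tumors 0 of 13 tested genes of this list passed with edgeR, 5 were higher and 0 lower at an unadjusted p under 0.05, and DESeq2 called 2 as higher. Of 13 immediate early genes, which report recent stimulation or handling of cells, 3 fell and 0 rose in Tyk2Δ/Δ tumors with edgeR (2 were higher at an unadjusted p under 0.05 and also with DESeq2), where 2.13% of all genes fell. The fall passed 2-fold for 2 of them, where 1.21% of all genes were called lower past 2-fold. Fosb had 7.68, 5.26 and 7.85 CPM in Tyk2Δ/Δ tumors, against 16.1, 26.6 and 25.4 CPM in Tyk2+/+ tumors (log2 fold change -1.71, SE 0.23, adjusted p = 0.0104). Atf3 had 43.8, 40.9 and 41.2 CPM in Tyk2Δ/Δ tumors, against 69.2, 95.9 and 102 CPM in Tyk2+/+ tumors (log2 fold change -1.09, SE 0.13, adjusted p = 0.00728). Both genes were also higher in Tyk2+/+ than in Tyk2fl/fl tumors in the fit over all libraries. That difference was 1.80 (SE 0.32, adjusted p = 0.00325) for Fosb and 0.73 (SE 0.19, adjusted p = 0.0215) for Atf3. It reuses the 3 Tyk2+/+ libraries whose high values had picked these genes, so it is no separate support. Tyk2Δ/Δ minus Tyk2fl/fl was 0.09 (SE 0.35, adjusted p = 0.890) for Fosb and -0.36 (SE 0.20, adjusted p = 0.257) for Atf3. In Tyk2ΔIEC tumors 2 of 13 immediate early genes fell, near the 9.71% of all genes, and 0 rose (0 higher at an unadjusted p under 0.05 or with DESeq2). Of 6 clock output genes, 1 rose and 0 fell in Tyk2ΔIEC tumors, where 10.2% of all genes rose (Wee1, a mitosis kinase, by 0.33 with SE 0.09 and adjusted p = 0.0222), and none passed in Tyk2Δ/Δ tumors with edgeR or DESeq2, where 1 was lower and 0 higher at an unadjusted p under 0.05.

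Contents of other cell types differed between groups in places. Of 10 smooth muscle markers 8 fell in Tyk2Δ/Δ tumors, where 2.13% of all genes fell, and the list summed to 151.9 to 229.0 CPM in Tyk2Δ/Δ and 299.1 to 501.6 CPM in Tyk2+/+ tumors, with none at 0. In Tyk2ΔIEC and Tyk2fl/fl tumors it summed to 200.7 to 1472 CPM and 187.6 to 801.8 CPM, which overlapped. Of 9 leukocyte markers 8 were tested in the germline comparison, 3 of which fell beside the same 2.13%, and the list summed to 333.1 to 450.2 CPM in Tyk2Δ/Δ and 392.3 to 652.2 CPM in Tyk2+/+ tumors, with none at 0. Of 8 fibroblast markers 5 fell in Tyk2ΔIEC tumors, where 9.71% of all genes fell, and the list summed to 1303 to 1640 CPM in Tyk2ΔIEC and 1345 to 2219 CPM in Tyk2fl/fl tumors, with none at 0. The part of these cell types in the levels of the clock genes was not tested.

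By likeness over the 17 libraries, the 5 genes whose log2 CPM went most closely with the mean of the 8 Per, PAR bZIP and Rev-erb genes were Son (Pearson's r = 0.898), Afdn (0.885), Prrc2c (0.879), Zfp516 (0.874) and Tnks (0.874), out of 13729 named protein-coding genes. The 5 with the lowest r were Ywhaq (-0.919), Tmem141 (-0.914), Rrp36 (-0.895), Ufsp2 (-0.890) and Ryk (-0.890). This r takes in differences between genotypes as well as within them, which were not separated. Son had a median of 489.4 CPM in Tyk2Δ/Δ and 482.5 CPM in Tyk2+/+ tumors, and of 560.1 CPM in Tyk2ΔIEC and 478.9 CPM in Tyk2fl/fl tumors. The clock genes described here were left out of this ranking beforehand. None of the 10 genes named in it is on the list of other core clock genes.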

How the data were processed

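Poly(A) RNA of macrodissected tumors was made into directional libraries. The deposited counts are raw read counts per gene that the authors obtained with STAR 2.6.1a (submitters' processing notes, which name GRCm38), neither filtered nor normalized; which strand was counted is not given in the sources used here. The 17 single-sample tables were equal to the series tables, and groups come from the labels. Of 55421 identifiers 55240 matched GENCODE release 21 (GRCm38), which gave symbols, positions and exon lengths.

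In each comparison genes passed filterByExpr (minimum count 10, minimum total 15) and were tested with edgeR 4.0.16 (TMM, quasi-likelihood F test, Benjamini-Hochberg over all genes tested) in R 4.3.3. CPM and log2 CPM (prior count 2) come from TMM over all 17 libraries, fold changes from the fit of each comparison. DESeq2 1.42.0 and other settings were alternatives. On simulated counts at the observed depth the edgeR step recovered most of its known changes. Pairs were tested with 5040 permutations. Members, lists and tests were chosen with earlier results of these data known. The text names all 10 members, 7 fixed regulators, the genes of each pathway list called past 2-fold, and the 5 highest and 5 lowest in likeness. Btrc, Wee1, Klf9, Mt1, Mt2, Angptl4 and Ddit4 were named after their values were seen. The list of other core clock genes is not exhaustive, and not every clock regulator is reported here. Replicates were distinct libraries by a chi-square test of their counts. Figures were drawn with matplotlib 3.10.9.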

Additional observations from a re-analysis of the deposited data

Results flagged for a closer look

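In 2 of 20 groups of 4 or 7 libraries examined, 1 library lay far from the rest on the log2 CPM scale, and chance gives about 1 such group in 20. Per2 in Tyk2ΔIEC replicate 1 took 0.869 of the range of its group as its gap to the nearest library, on the high side. Arntl in Tyk2ΔIEC replicate 4 took 0.944 of the range, also on the high side. The high Per2 library was the one rich in smooth muscle markers (1472 CPM), and the part of these cells was not tested.

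In 2 members all libraries of one experiment lay on the opposite side of their control mean from all libraries of the other, and the difference was not tested because the members were chosen on the epithelial contrast. Every Tyk2Δ/Δ library lay above the Tyk2+/+ mean of Per1 and every Tyk2ΔIEC library below the Tyk2fl/fl mean, with log2 fold changes of 0.13 and -0.22. For Nr1d2 every Tyk2Δ/Δ library lay below the Tyk2+/+ mean and every Tyk2ΔIEC library above the Tyk2fl/fl mean, with -0.10 and 0.23. Nr1d1 (-0.07 and 0.11) and Npas2 (-0.02 and 0.11) also had fold changes of opposite sign, but not in every library.

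A test of the difference between both changes, over all libraries with edgeR, passed in 6 of the genes named above that are no members but stand in a pathway list (germline change minus epithelial change, log2 scale). These were Clock at -0.61 (adjusted p = 0.0312), Fosb at -2.16 (0.0174), Atf3 at -1.19 (0.0211), Mt1 at 1.28 (0.00216), Mt2 at 1.56 (0.0103) and Klf9 at 0.61 (0.00687). Over all 17252 genes 7.96% passed. Ddit4, from the glucocorticoid-induced list and named after its value was seen, passed too (0.44, adjusted p = 0.0364). Fosb, Atf3, Mt1, Mt2 and Klf9 had been named for their change in 1 of the experiments. For them the test reuses the values that picked them, and nothing is read from it. Fosb and Atf3 were also higher in Tyk2+/+ than in Tyk2fl/fl tumors, as given above, in the same Tyk2+/+ libraries that had picked them.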

How the results depend on the processing

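In Tyk2Δ/Δ over Tyk2+/+ tumors the fold changes of Per1, Per2, Per3, Dbp and Tef kept their direction in all 12 alternatives each. The count of members higher at an adjusted p under 0.05 was 1, and became 3 with DESeq2, 3 without the low-count filter, 0 with the replicate number as a block (Per3 then at 0.73, adjusted p = 0.0638) and 0 to 2 when each library was left out. Other core clock genes went to 1 from 0 with DESeq2 and without the filter. Genes called over the whole table numbered 210, against 362 without the filter, 453 without a fold minimum and 96 to 240 when each library was left out, and without a fold minimum 1 member was called higher. Fold changes near 0 changed sign: Npas2 was 0.019 with library totals only, Hlf -0.039 with the block, and leaving out each library gave -0.64 to 0.30 for Hlf, -0.21 to 0.19 for Nr1d1, -0.18 to 0.0065 for Nr1d2, -0.089 to 0.10 for Arntl and -0.099 to 0.078 for Npas2. The cause was not tested. In Tyk2ΔIEC over Tyk2fl/fl tumors, the contrast that chose the members, their counts support nothing; members lower numbered 0 to 1 when each library was left out (Per1 at -0.28 without Tyk2fl/fl replicate 7). Other core clock genes numbered 2 to 5, or 1 with the block, against 4. Genes called numbered 551, against 229 with the block and 3515 without a fold minimum. Replicate numbers did not pair the libraries (correlations of deviations -0.47 to 0.19), and 0 of 14 libraries correlated best with their own number. The limb difference between Tyk2ΔIEC and Tyk2fl/fl tumors was 0.46 to 0.61 under its 3 alternatives, 1 of which (without Hlf, 0.46) was chosen after seeing the data. Hlf, with 7 to 22 counts, is limited by depth.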
